A study of Mus musculus with 2 samples.

Results

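The globin genes of the mouse and the gene of AHSP, the chaperone of free alpha globin, were read in megakaryocytes, the blood cells that release platelets. The list held 8 genes: the adult alpha globins Hba-a1 and Hba-a2, the embryonic alpha-like globin Hba-x, the adult beta globins Hbb-bt and Hbb-bs, the embryonic beta-like globins Hbb-bh1 and Hbb-y, and Ahsp. Each was taken by its symbol, whatever its level. Of these, 7 were matched to 1 gene identifier each, out of 43346 Ensembl genes in the tables, and 1, Ahsp, was not matched and is not analysed here.

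The data were 2 libraries of polyadenylated RNA, replicates 1 and 2 of a single group of primary mouse megakaryocytes at embryonic day 14.5, with male and female cells pooled. The labels give no strain, genotype or treatment, and name the same biosample and donor for both libraries, so differences between them may reflect technical steps in some measure. With a single group there was nothing to compare or test, and every ratio below sets 1 library against the other. Replicate 1 held 42099216 expected counts and replicate 2 held 2275922 (expected counts are estimated fragments per gene, which need not be whole).

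Hemoglobin joins alpha-like and beta-like chains, each with a heme group, and is the main protein of red cells. In the mouse the alpha-like genes lie together on chromosome 11 and the beta-like genes on chromosome 7, and in each cluster embryonic genes are used by the first red cells of the yolk sac and adult genes by those of the fetal liver and bone marrow. Red cells and megakaryocytes come from a shared progenitor and share factors such as GATA1.

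The adult genes come in near copies, with few coding bases that tell the copies apart. In GENCODE M21 on GRCm38 the coding sequences of Hba-a1 and Hba-a2 were identical at 425 of 426 bases, and those of Hbb-bt and Hbb-bs at 440 of 441. Counted from 1 at the A of the start codon, the differences were C381T from Hba-a1 to Hba-a2 and T417C from Hbb-bt to Hbb-bs. The windows around them are shown because they hold the only coding base that separates each pair, which is in capitals, and all sequences are written 5′ to 3′. They lie in the last exon of each gene, at chr11:32284323-32284363 and chr11:32297140-32297180 on the plus strand for the alpha genes, and at chr7:103812663-103812703 and chr7:103826672-103826712 on the minus strand for the beta genes.
Hba-a1: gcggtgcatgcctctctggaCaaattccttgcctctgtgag
Hba-a2: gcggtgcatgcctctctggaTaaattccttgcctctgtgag
Hbb-bt: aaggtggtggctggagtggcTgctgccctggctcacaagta
Hbb-bs: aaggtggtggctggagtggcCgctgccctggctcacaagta

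All 4 adult globins stood high, and the embryonic globins were at or near 0 counts. Hba-a1 (chromosome 11, 32283511 to 32284465, plus strand), which codes for adult alpha globin, had 4480.45 TPM (replicate 1) and 12715.45 TPM (replicate 2) (TPM is the authors' level per length, scaled to the same total in each library). Its mean of 8598 ± 5823 TPM (SD, n = 2) was the 12th highest of all genes, and it ranked 31 in replicate 1 and 6 in replicate 2. Hba-a2 (chromosome 11, 32296489 to 32297298, plus strand), the other adult alpha gene, had 2505.77 TPM (replicate 1) and 2063.22 TPM (replicate 2), a mean of 2284 ± 313 TPM (SD, n = 2). In these gene levels, which add coding and noncoding transcripts, the alpha genes kept their order in both libraries. The gap between them was much wider in replicate 2. Among the coding transcripts alone the order was the reverse, as given below. In such bulk libraries, fewer cells of a type and less RNA per cell cannot be told apart.

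Hbb-bt (chromosome 7, 103812524 to 103813996, minus strand), an adult beta globin gene of the single haplotype, had 1719.33 TPM (replicate 1) and 513.36 TPM (replicate 2), a mean of 1116 ± 853 TPM (SD, n = 2). Hbb-bs (chromosome 7, 103826534 to 103828096, minus strand), the other adult beta gene of this haplotype, had 727.25 TPM (replicate 1) and 481.21 TPM (replicate 2), a mean of 604 ± 174 TPM (SD, n = 2). Both beta genes lay below both alpha genes in each library. In the order of mean levels, Hba-a1 stood above Hba-a2, Hbb-bt and Hbb-bs. Within each library Hbb-bt was above Hbb-bs, though only narrowly in replicate 2. Across libraries their values overlapped, with the lower Hbb-bt value inside the range of Hbb-bs. The Hba-a1 and Hba-a2 values did not overlap.

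Of the embryonic genes, 1 had counts and the other two had none. Hbb-y (chromosome 7, 103851749 to 103853216, minus strand), the epsilon-like globin of primitive red cells, had 68 counts or 3.30 TPM in replicate 1 and 2 counts or 2.10 TPM in replicate 2. Hba-x (chromosome 11, 32276400 to 32278116, plus strand), the zeta-like globin, and Hbb-bh1 (chromosome 7, 103841637 to 103843164, minus strand), an embryonic beta-like globin, had 0 counts in both libraries. A count of 0 allows up to 3 counts, which for Hba-x is 0.138 TPM (replicate 1) and 2.98 TPM (replicate 2), and for Hbb-bh1 is 0.160 and 3.46 TPM. In replicate 2 the value of Hbb-y lay under its own limit for a count of 0, 3.14 TPM.

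Of the 7 globins, 5 had a mean TPM of 1 or more, against 22.7% of all 43346 genes. Of the beta-like counts, the embryonic genes took 0.135% in replicate 1 (exact 95% binomial interval 0.105 to 0.172) and 0.219% in replicate 2 (0.0266 to 0.790), and these intervals overlap. Every interval given here describes counting error alone, because no molecular identifiers are named and fragments may be copies of each other.

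**Figure D1:**
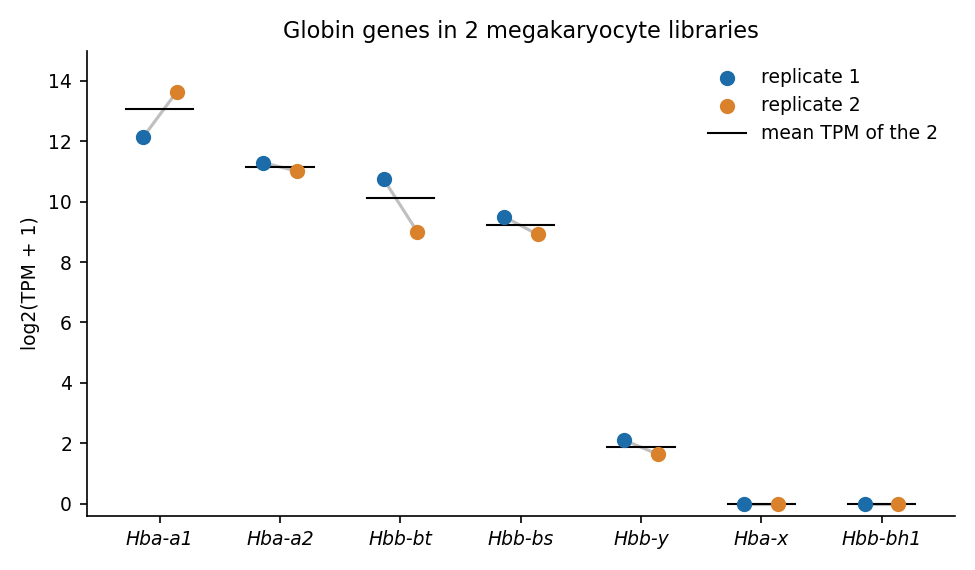
Levels of the 7 matched globin genes, as log2(TPM + 1), in replicates 1 and 2 (points) with the mean TPM of both libraries (black bars). The 4 adult genes lie between 481.21 and 12715.45 TPM, Hbb-y lies at 3.30 and 2.10 TPM, and Hba-x and Hbb-bh1 lie at 0.

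The proximal promoters of an adult alpha, an adult beta and an embryonic beta-like gene are shown because these genes differ widely in level. Each is a stretch of 80 bases that ends just before the start of the main coding transcript in M21, with letters from the RefSeq promoter table on GRCm38.p6, whose own start lies at or a few bases after that one: chr11:32296409-32296488 (plus strand) for Hba-a2, chr7:103827929-103828008 (minus strand) for Hbb-bs and chr7:103853217-103853296 (minus strand) for Hbb-y. Capitals mark the TATA box letters TATAA, the CCAAT box, the CACCC box and the GATA factor motif GATAA, searched on both strands, and no match overlapped another.
Hba-a2: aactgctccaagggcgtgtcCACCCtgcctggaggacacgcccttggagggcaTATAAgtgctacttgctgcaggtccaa
Hbb-bs: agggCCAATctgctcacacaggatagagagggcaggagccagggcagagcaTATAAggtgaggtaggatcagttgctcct
Hbb-y: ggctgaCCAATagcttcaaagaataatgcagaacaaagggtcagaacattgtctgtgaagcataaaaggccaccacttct

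TATAA was found in the Hba-a2 and Hbb-bs stretches, CCAAT in those of Hbb-bs and Hbb-y and CACCC in that of Hba-a2, and GATAA in none of the 3. Only exact letters within these 80 bases were searched. A motif not found here may still be present as a variant or further upstream. Among the 80 bases before the RefSeq start in 32851 promoters, TATAA was present in 8.74%, CCAAT in 15.3%, CACCC in 22.7% and GATAA in 6.77%. The 250 bases before the RefSeq start of Hba-a1 and of Hba-a2 aligned with 247 of 247 paired bases identical and the rest in gaps. For Hba-a1, 161 of these bases lie within its coding transcript in M21. The levels listed for these genes were unequal, and they depend on how fragments were divided between near copies, as described next.

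The alpha genes formed a closed pool of fragments, and so did the adult beta genes. The expected counts of Hba-a1 were 65779.1 in replicate 1 and 8275.81 in replicate 2, and those of Hba-a2 were 41171.9 and 1558.19. None of these is whole, yet their sums are whole numbers, 106951 in replicate 1 and 9834 in replicate 2. The same held for Hbb-bt (38298.96 and 529.78) and Hbb-bs (11848.04 and 380.22), which summed to 50147 and 910. The sum of a pair is thus free of the division between its copies, whereas each single value depends on it.

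The deposited posterior SD of the counts shows how loose that division was. For Hba-a1 and Hba-a2 it was the same number, 476.96 counts in replicate 1 and 106.33 in replicate 2. Set against the counts, this was 0.725% and 1.28% for Hba-a1 and 1.16% and 6.82% for Hba-a2, above the square root of the count in every case (for Hba-a1, 256 and 91.0). For Hbb-bt and Hbb-bs the posterior SD was 16.78 and 3.89 counts, below the square roots of their counts, which ran from 19.5 to 196. The beta pair was therefore divided more firmly than the alpha pair by the authors' quantifier. For Hbb-y, whose counts were whole, the posterior SD was 0.

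Within the alpha pool, Hba-a1 took 61.5% of counts in replicate 1 (exact 95% binomial interval 61.2 to 61.8) and 84.2% in replicate 2 (83.4 to 84.9). Within the beta pool, Hbb-bt took 76.4% in replicate 1 (76.0 to 76.7) and 58.2% in replicate 2 (55.0 to 61.5). Both divisions differed between the libraries by more than counting error. In TPM, which corrects for length, Hba-a1 held 64.1% and 86.0% of the alpha sum, and Hbb-bt held 70.3% and 51.6% of the beta sum.

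The transcript tables place most of the Hba-a1 signal on a short form without a coding sequence. Hba-a1 has a coding transcript of 699 bases (ENSMUST00000093209.3) and one of 494 bases (ENSMUST00000142555.1), which the annotation calls a retained intron transcript. The retained intron form of Hba-a1 took 58363.2 counts in replicate 1 and 8034.31 in replicate 2, whereas the coding form of Hba-a1 took 7415.91 and 241.5. The short form thus held 92.5% of the TPM of Hba-a1 in replicate 1 and 98.1% in replicate 2. Hba-a2 was the reverse: its coding form (ENSMUST00000093207.3, 554 bases) took 41145.09 and 1558.19 counts, and its own retained intron form (ENSMUST00000147010.1, 494 bases) took 26.81 and 0. Between the coding forms, that of Hba-a2 was the higher, at 2503.87 TPM (replicate 1) and 2063.22 TPM (replicate 2). The coding form of Hba-a1 had 335.28 and 235.71 TPM.

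These short forms differ from the coding ones at the start. The retained intron form of Hba-a1 begins inside the first intron, carries 113 bases of it, and then runs through exons 2 and 3 with the second intron spliced out. The passage into exon 2 is shown for both forms, with exon 2 in capitals and the 40 bases before it in lower case, which are exon 1 in the coding form of Hba-a1 (chr11:32283762-32283801, then chr11:32283924-32283943) and intron 1 in the retained intron form of Hba-a1 (chr11:32283884-32283943), plus strand of GRCm38.
Hba-a1 coding form: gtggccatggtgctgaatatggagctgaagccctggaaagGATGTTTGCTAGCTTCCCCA
Hba-a1 retained intron form: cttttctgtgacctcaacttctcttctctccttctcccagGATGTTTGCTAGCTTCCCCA

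Few stretches of these transcripts belong to 1 of them alone. Of the 395 windows of 100 bases in the retained intron form of Hba-a1, 299 (75.7%) also occur in the retained intron form of Hba-a2, 284 (71.9%) in the coding form of Hba-a1 and 188 (47.6%) in the coding form of Hba-a2, and 100% occur in at least 1 other adult alpha transcript. For the coding form of Hba-a2 the share found in at least 1 other was 95.6% of 455 windows, and for the coding form of Hba-a1 it was 72.5% of 600. The annotated start of the coding form of Hba-a1 lies 161 bases before the RefSeq start of the gene, against 3 bases for the coding form of Hba-a2, so the coding forms of these genes also differ in length at the 5′ end. Which of these features set the division of fragments was not tested.

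Hbb-bs showed the same feature. Its retained intron transcript (ENSMUST00000131960.1) took 11735.81 of 11848.04 counts in replicate 1 and 321.65 of 380.22 in replicate 2, that is 99.4% and 89.6% of the gene's TPM. The main coding transcript (ENSMUST00000023934.6) took 112.23 and 58.57 counts, and the other coding form (ENSMUST00000153218.1) took 0. Hbb-bt has 1 annotated transcript, which is coding and took all its counts, as does Hbb-y. The main coding form of Hbb-bs was therefore listed at 4.45 TPM (replicate 1) and 50.01 TPM (replicate 2), far below the gene's own level. In replicate 2 the posterior SD of this form was 45.6 counts, and its deposited bounds were 4.53 to 106 TPM, so its difference between the libraries is loosely set. The lengths of the main coding and the retained intron form in the deposited tables, 778 and 549 bases, differ from those in M21, 628 and 344, so their sequences are not compared here.

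Over the 12 transcripts of the matched globins, the retained intron forms held 44.6% of counts in replicate 1 and 77.8% in replicate 2. Over all transcripts of the libraries such forms held 5.90% and 6.08% of counts. Among genes that have a retained intron form and at least 100 counts, such forms took more than 50% of counts in 384 of 3991 genes in replicate 1 (9.62%) and 137 of 1101 in replicate 2 (12.4%). Hba-a1 and Hbb-bs were among these in both libraries, and Hba-a2 was not.

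**Figure D2:**
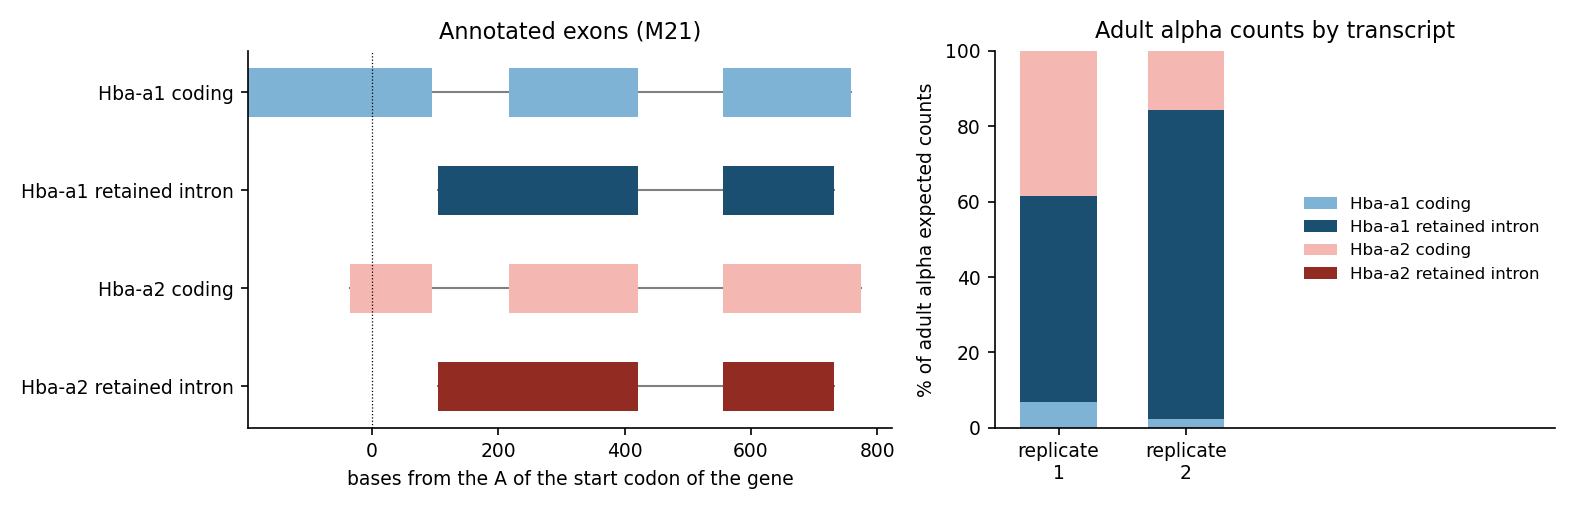
Left, annotated exons (boxes) and introns (lines) of the 4 adult alpha transcripts in M21, in bases from the start codon of each gene. Right, the percentage of adult alpha expected counts on each transcript in replicates 1 and 2, where the retained intron form of Hba-a1 took 54.6% and 81.7%, the coding form of Hba-a2 took 38.5% and 15.8%, and the coding form of Hba-a1 took 6.93% and 2.46%.

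The balance of alpha to beta globin RNA differed widely between the libraries. Adult alpha globin summed to 6986.22 TPM (replicate 1) and 14778.67 TPM (replicate 2), and adult beta globin to 2446.58 and 994.57 TPM. The ratio of alpha to beta in TPM was 2.86 in replicate 1 and 14.9 in replicate 2, a mean of 8.86 ± 8.49 (SD, n = 2). In counts, which do not depend on the division between copies or on effective lengths, it was 2.13 (exact 95% interval 2.11 to 2.16) in replicate 1 and 10.8 (10.1 to 11.6) in replicate 2. Alpha globin exceeded beta globin in both libraries, by amounts that differed beyond counting error. Beside this, the medians of 10 erythroid markers were 0.18 TPM in replicate 1 and 1.66 TPM in replicate 2, while the summed macrophage and granulocyte markers were higher in replicate 1 (756 and 781 TPM) than in replicate 2 (220.5 and 139 TPM). The part of these markers in the globin values was not tested.

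Scaled for depth by TMM factors, the adult alpha sum was lower in replicate 1, at 0.434 times replicate 2 (exact 95% interval 0.425 to 0.443). These factors aim at a common level over most genes, but many genes still differed between the libraries after this scaling, as given below. The adult beta sum was higher in replicate 1, at 2.20 times replicate 2 (2.06 to 2.35). The alpha and beta sums therefore differed in opposite directions between these libraries. Summed over the 7 globins the ratio was 0.583 (0.572 to 0.595), since alpha globin makes up most of the sum, which was 9436.1 TPM (replicate 1) and 15775.34 TPM (replicate 2).

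The ratios of single adult genes depend on the division between copies, unlike those of the sums. Hba-a1 had a ratio of replicate 1 to replicate 2 of 0.317 (exact 95% interval 0.310 to 0.324), while Hba-a2, its near copy, had 1.05 (1.00 to 1.11). Hbb-bt had 2.88 (2.65 to 3.15), while Hbb-bs had 1.24 (1.12 to 1.38). Hbb-y had 1.36, with an interval from 0.361 to 11.4 that is set by its 2 counts in replicate 2. At the level of transcripts, the retained intron form of Hba-a1 had a ratio of 0.290 (0.283 to 0.297), the coding form of Hba-a1 one of 1.22 (1.08 to 1.40) and the coding form of Hba-a2 one of 1.05 (1.00 to 1.11). These intervals leave out the error of the division between copies and transcripts. In replicate 2 the posterior SD was 83.23 counts for the coding form of Hba-a1, which had 241.5 counts. For the coding form of Hba-a2 it was 95.51, against 1558.19 counts. The ratios of the coding forms are therefore less certain than their intervals show. In the authors' division, the alpha excess of replicate 2 was placed on the retained intron form of Hba-a1 alone among the alpha transcripts measured in both libraries. The posterior SD of that form was small beside its counts: 496.31 against 58363.2 in replicate 1 and 94.47 against 8034.31 in replicate 2. Of its 100-base windows, 100% occur in at least 1 other adult alpha transcript, but at most 75.7% in any single one. This placing is that of the authors' quantifier and was not tested.

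Of the 4 globins with a mean count of at least 100, 1 (Hbb-bt) was at least 2-fold higher in replicate 1, as were 33.8% of 8194 genes at that minimum, and 1 (Hba-a1) was at least 2-fold lower, as were 15.7%. With total counts in place of TMM the shares over all genes were 43.5% higher and 7.31% lower, and with a minimum of 50 CPM (counts scaled to the library total), which weights the libraries equally, they were 15.8% and 26.4%. A gene with counts in 1 library alone was counted as higher in that library. The globins called were Hbb-bt and Hba-a1 in each case. The median log2 ratio of 7827 genes with a count in both libraries was 0.21 with TMM and 0.65 with total counts, and relative to it Hba-a1 (-1.66 with TMM) lay below and Hbb-bt (1.53) above.

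**Figure D3:**
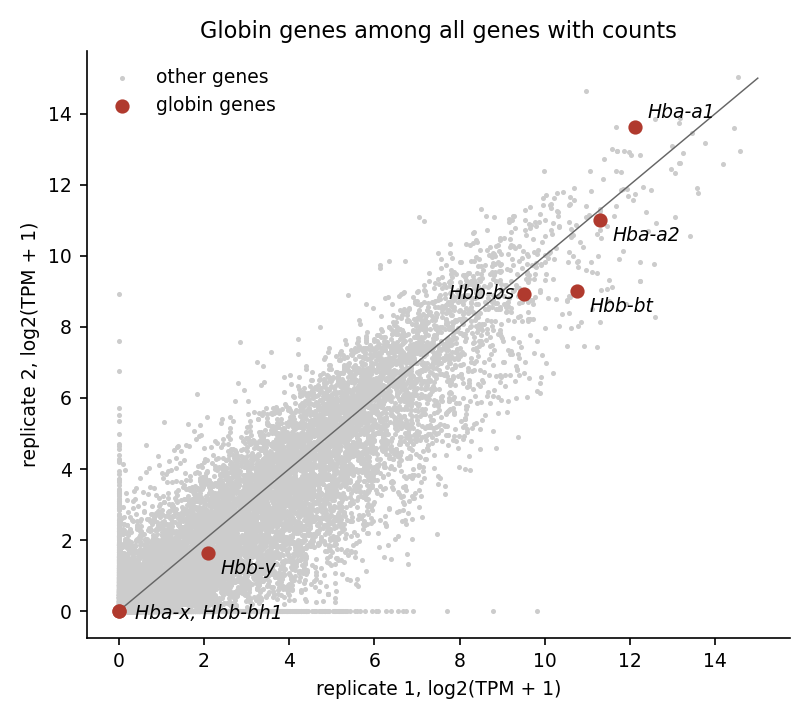
Levels of all genes with counts (grey) and of the 7 globins (red) in replicate 1 (x axis) and replicate 2 (y axis), as log2(TPM + 1), with the line of equal levels. Hba-a1 lies above the line, and Hba-a2, Hbb-bt, Hbb-bs and Hbb-y lie below it.

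Base composition moved with the ratio between the libraries. In 5 equal groups from low to high GC content, the median log2 ratios of replicate 1 to replicate 2 were 0.82, 0.58, 0.32, 0.02 and -0.48. The longest transcripts of Hba-a1 and Hba-a2 had a GC content of 57.2% and 56.9%, and those of Hbb-bt and Hbb-bs had 50.8% and 51.3%. Genes within 1 percentage point of these had median log2 ratios of -0.17 (816 genes) for Hba-a1, -0.15 (841 genes) for Hba-a2, 0.39 (876 genes) for Hbb-bt and 0.35 (872 genes) for Hbb-bs. Divided by these medians, an alternative added after the data were seen, the ratios were 0.358 for Hba-a1, 1.17 for Hba-a2, 2.20 for Hbb-bt and 0.978 for Hbb-bs. Hba-a1 and Hbb-bt kept their direction, and Hbb-bs came close to 1, which is not read as a reversal. Genes with an effective length of 300 to 600 bases in replicate 1, the range of the globins, had a median log2 ratio of 0.79 (559 genes).

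**Figure D4:**
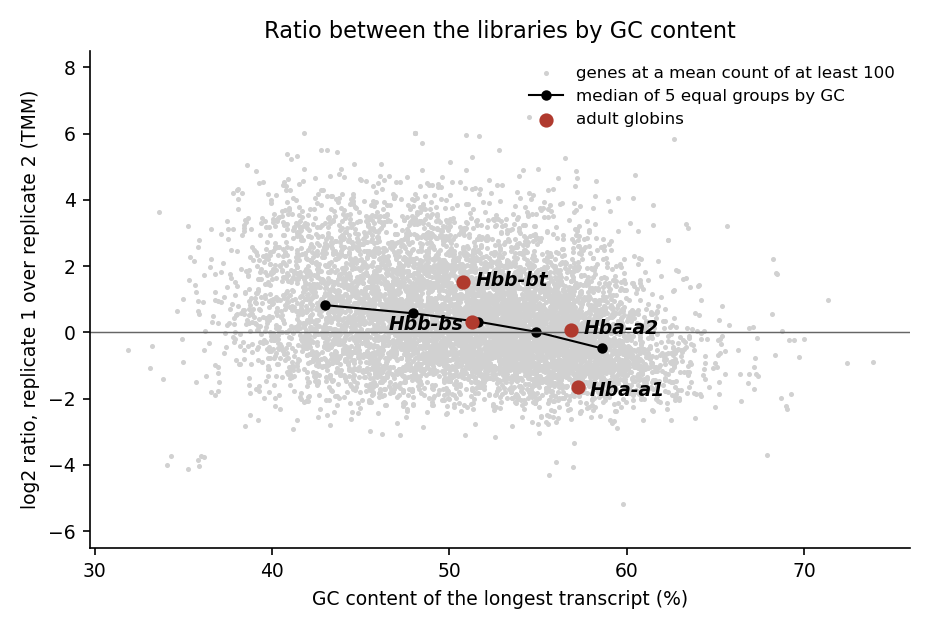
Log2 ratio of replicate 1 to replicate 2 (TMM) against the GC content of the longest transcript, for genes averaging 100 or more counts (grey), with the medians of 5 equal groups by GC content (black) and the adult globins (red). The medians run from 0.82 to -0.48, Hbb-bt (1.53) lies above them and Hba-a1 (-1.66) lies below.

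The red cell genes that usually accompany globin were set beside these values. Of 69 matched genes in 6 lists, 43 had a mean TPM of at least 1, against 22.7% of all genes. Nearly all lay below the adult globins: other than 2 transcription factors that megakaryocytes use as well, Zfpm1 and Gata1, no gene of these lists exceeded the mean TPM of Hbb-bs, the lowest adult globin.

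Heme synthesis genes, which make the group that each globin chain binds, were mostly detected, but the red cell form of the first enzyme was near 0. Of 12 genes, 10 (all but Alas2 and Uros) reached a mean TPM of 1, with medians of 18.8 TPM (replicate 1) and 23.7 TPM (replicate 2). Alas2, the erythroid enzyme of the first step, had 1 count in each library, under the limit for a count of 0. Raw counts show the depth behind a value, and the unequal depth of the libraries keeps them from being compared directly. Alas1, its counterpart in other cells, had 14.27 TPM (replicate 1) and 13.44 TPM (replicate 2). Tmem14c, a mitochondrial carrier of heme precursors, was highest at 116 ± 88.8 TPM, followed by Alad, the enzyme of the second step, at 51.0 ± 31.0 TPM and Slc25a38, the mitochondrial glycine carrier, at 47.8 ± 3.92 TPM (SD, n = 2). Fech, which inserts the iron (28.2 ± 9.81 TPM), Urod (26.7 ± 11.6 TPM), Cpox (8.32 ± 7.01 TPM) and Abcb10 (1.81 ± 1.09 TPM) were detected too (SD, n = 2), Ppox had 16.23 and 28.96 TPM, and Uros had 80 counts in replicate 1 and 0 in replicate 2.

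Genes of the red cell membrane were mostly low. Of 17, 7 reached a mean TPM of 1, and the list medians were 0.34 TPM (replicate 1) and 0.60 TPM (replicate 2). Slc4a1, the band 3 anion exchanger, had 0.13 TPM (replicate 1) and 2.73 TPM (replicate 2), from 22 and 11 counts, a ratio of 0.0798 (exact 95% interval 0.0371 to 0.182). Rhag and Rhd, of the Rh complex, had 0 in both, and Ermap, the lowest of those with counts, had 5 and 0. The highest were Epb41, protein 4.1, at 99.4 ± 22.6 TPM, Gypc, glycophorin C, at 71.6 ± 21.3 TPM and Sptb, beta spectrin, at 24.4 ± 0.559 TPM (SD, n = 2), none of which is restricted to red cells.

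Among regulators of the globin genes, the highest were factors that megakaryocytes also use. Of 16, 11 reached a mean TPM of 1. Zfpm1, the cofactor of GATA1, had 1193.09 TPM (replicate 1) and 3175.45 TPM (replicate 2), Gata1 had 218.82 and 1077.27 TPM, and Lmo2, of the TAL1 complex, had 567.84 and 448.41 TPM. Klf1, the factor that drives adult beta globin in red cells, had 11.46 TPM (replicate 1) and 8.15 TPM (replicate 2), from 629 and 21 counts. Of the repressors of embryonic and fetal globin known from mouse and human, Zbtb7a had 96.27 and 139.57 TPM, Bcl11a 6.23 and 1.14 TPM, and Sox6 17 counts in replicate 1 and 0 in replicate 2. Myb, a factor of blood progenitors, had 1.89 and 0.38 TPM. Lin28b and Igf2bp1, fetal RNA-binding proteins, had 0.40 and 0.06 TPM in replicate 1 and 0.10 and 0.13 TPM in replicate 2, and the mean level of Igf2bp1 was the lowest after that of Sox6.

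Among genes of erythropoietin and iron uptake, 5 of 7 reached a mean TPM of 1. Epor, the erythropoietin receptor, was highest, with 142.89 TPM (replicate 1) and 173.84 TPM (replicate 2), followed by Steap3, an iron reductase, at 13.4 ± 1.29 TPM and Slc25a37, the mitochondrial iron importer mitoferrin 1, at 2.92 ± 1.43 TPM (SD, n = 2). Tfrc, the transferrin receptor, had 1.27 and 4.39 TPM. Fam132b, the hormone erythroferrone (matched as Erfe), was lowest, with 5 counts and 0. Of 11 red cell enzymes and heme handling genes, 9 reached that level, led by Blvrb, biliverdin reductase B, at 329 ± 18.4 TPM, Gpx1, a glutathione peroxidase, at 139 ± 124 TPM and Car2, a carbonic anhydrase, at 89.4 ± 54.8 TPM (SD, n = 2), and Pklr, the red cell pyruvate kinase, was lowest with 27 counts and 0.

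Other globins were nearly absent. Hbq1b, a theta globin gene of the alpha cluster, had 46 counts in replicate 1 and 1 in replicate 2. Hbq1a, Hbb-bh2, the myoglobin gene Mb, the cytoglobin gene Cygb and the neuroglobin gene Ngb had 0 in both libraries. The listed names Hbb-b1 and Hbb-b2 were not matched.

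**Figure D5:**
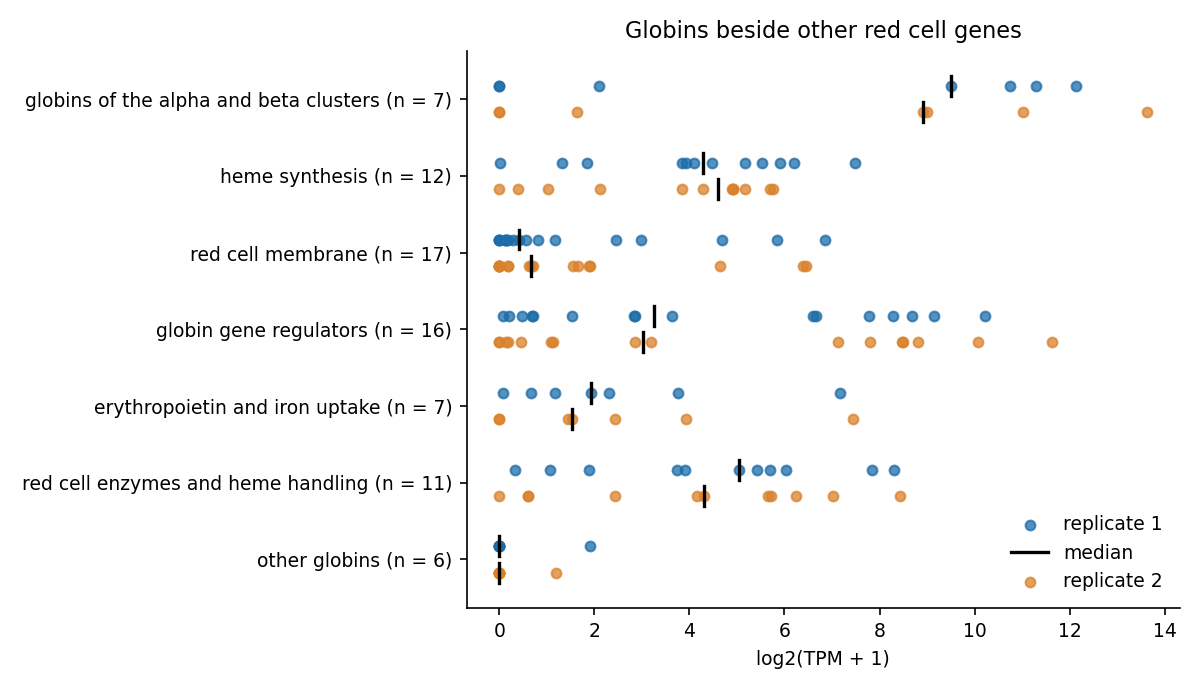
Levels of the 7 globins and of the genes of 6 red cell lists in replicate 1 (blue) and replicate 2 (orange), as log2(TPM + 1), with the median of each list in each library (black). Hba-a1 holds the highest value in each library, the red cell membrane list has medians of 0.34 and 0.60 TPM, and 5 of the 6 other globins lie at 0.

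Markers of cell types were read as a check of the label. All 14 megakaryocyte markers reached a mean TPM of 1, with summed levels of 18506 TPM (replicate 1) and 26749.8 TPM (replicate 2). Of 10 erythroid markers outside the globins, 5 reached it, with summed levels of 169 and 195 TPM, of which Epor made up most, and Rhag at 0. Of these markers, Epor had a ratio of replicate 1 to replicate 2 of 0.697 (exact 95% interval 0.640 to 0.762) and Slc4a1 was lower in replicate 1 as well. The membrane skeleton genes Ank1 and Epb42 and the nuclear protein gene Hemgn are named after their values were seen. Ank1 had a ratio of 0.303 (0.119 to 0.987) and Epb42 had 0 counts in replicate 1 and 4 in replicate 2, whereas Hemgn had a ratio of 1.88 (1.25 to 2.98). Of 9 macrophage markers 7 reached a mean TPM of 1, and of 8 granulocyte markers 7 did, with the sums given beside the alpha to beta ratio, while of 5 hepatocyte markers 2 did and Alb and Ttr were at 0.

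The genes with the most similar pair of levels were looked up among 21467 protein coding genes, as the distance in log2(TPM + 1) over the 2 libraries. Nearest to Hba-a1 were Cyba at a distance of 0.449, Ptma at 0.506 and Zyx at 0.721. Nearest to Hbb-bs were Mrpl54 at 0.0395, Lat at 0.0830 and Rasgrp2 at 0.136. With 2 libraries such a distance describes similar levels and nothing more.

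The deposited posterior means give another reading of the same fragments. For Hba-a1 the posterior mean TPM was 4395.76 in replicate 1 and 8955.69 in replicate 2, with deposited bounds of 8654 to 9251 in replicate 2 that do not hold its maximum likelihood TPM of 12715.45. For Hbb-bt it was 1686.17 and 363.78 TPM, with bounds of 331 to 395 in replicate 2, again below the maximum likelihood value of 513.36 TPM. The counts themselves hardly moved (8235.9 against 8275.81 for Hba-a1 in replicate 2). Genes at 0 expected counts took 1.66% of all posterior mean TPM in replicate 1 and 25.6% in replicate 2. Shares within a pool were nearly the same by both readings, with Hba-a1 at 64.2% and 85.6% of the alpha sum in posterior mean TPM.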

How the data were processed

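For each library the authors deposited a gene and a transcript table, with assembly mm10 and annotation M4 per the deposited file lists; which aligner and quantifier made them is not given in the sources used here. Per the file headers, the deposited expected counts are estimated fragments per feature, and TPM and FPKM are the authors' levels per effective length, as maximum likelihood values and posterior means. The posterior SD and interval bounds are a deposited score of the authors' quantifier, and the percent of a gene held by a transcript is deposited too.

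Rows of 43346 Ensembl genes were used; the other 26345 held a total of 15 counts (replicate 1) and 0 (replicate 2). Symbols (97.96% of genes), positions and transcripts came from GENCODE M21 on GRCm38, the assembly of mm10, and promoters from RefSeq on GRCm38.p6, which held 6 of the 8 listed genes. Of 12 globin transcripts, 7 had the same version and length in M21, and only these were compared by windows. Expected counts were rounded for edgeR 4.0.16 in R 4.3.3, whose TMM factors (1.16 for replicate 1 and 0.859 for replicate 2) were computed on 12132 genes averaging 10 or more counts; size factors of DESeq2 1.42.0 were an alternative. Intervals are exact (Clopper-Pearson). In simulated tables of 43346 genes, 100 genes each set 4-fold higher and 0.25-fold had median ratios of 3.93 and 0.251. The simulated libraries were alike in all other genes and held counting error alone. This checks the calculation and cannot show how the scaling performs on libraries as unlike as these. Other steps used Python 3.11.15, scipy 1.17.1 and matplotlib 3.10.9.

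The genes, the lists and the rule for named genes (all listed globins; of each list the 3 highest, the lowest and those at 0, some fixed by name; for Hba-a1 and Hbb-bs the 3 genes nearest in level) were chosen with earlier results of these data known. Some genes that the rule names are not reported here.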

Additional observations from a re-analysis of the deposited data

How the results depend on the processing

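No paired analysis was possible because the labels give a single group. The summed globin level, the alpha to beta ratio and both shares within a pool moved by less than the spread between the libraries with posterior means, FPKM or annotated lengths in place of TPM. With either library left out, the alpha to beta ratio ran from 2.86 to 14.9. The embryonic share of beta-like TPM was 0.173% and moved to 0.287% with posterior means, which give genes at 0 counts a level above 0. Planned values for Ahsp were not run.

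Ratios of replicate 1 to replicate 2 moved beyond their counting intervals as follows. With total counts they were 0.430 for Hba-a1, 1.43 for Hba-a2, 3.91 for Hbb-bt, 1.69 for Hbb-bs and 0.791 for the summed globins. With TPM they were 0.352, 1.21, 3.35, 1.51 and 0.598 in the same order. With DESeq2 size factors they were 0.310 for Hba-a1 and 0.570 for the sum. Relative to genes of like GC content, added after the data were seen, they were 0.358 for Hba-a1, 1.17 for Hba-a2 and 2.20 for Hbb-bt. Hbb-bs moved to 0.978, close to 1 and without an interval of its own, so no reversal is read from it. The cause was not tested beyond the construction of each alternative. The other 48 alternative values stayed within the spread between libraries, the counting interval or 1.5 times the count. Some of these could not have moved, so the number does not measure stability. With 2 libraries, leaving 1 out always shifts the mean by less than their SD. Ratios and shares within a library are the same in FPKM as in TPM. The depth of replicate 2, where 3 counts are 1.32 CPM (replicate 1: 0.0713 CPM), limits what can be said of Hbb-y, Hba-x and Hbb-bh1.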
